A study of Mus musculus with 24 samples.

Results

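The miRNA family of miR-15, miR-16, miR-195, miR-497 and miR-322 was followed across mouse spermatocytes and round spermatids that had, or lacked, Argonaute genes. The family is 6 mature miRNAs, mmu-miR-15a-5p, mmu-miR-15b-5p, mmu-miR-16-5p, mmu-miR-195a-5p, mmu-miR-497a-5p and mmu-miR-322-5p (mmu stands for mouse and is left out from here on), out of 1978 mature miRNAs counted. They are the 5p strands that share 1 seed, and they were chosen by seed and by their measured difference between Ago413-/- and Ago413+/+ libraries, to set the miR-195a and miR-497a cluster beside miR-15 and miR-16. The differences between genotypes are therefore given for the members as a description without a p-value. The order of the 6 miRNAs within a group and the round spermatids against the spermatocytes were not part of that choice. Within Ago413-/- alone, the cell type difference rests on libraries of the choosing contrast, so it too is a description.

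A miRNA guides an Argonaute protein to messenger RNAs that pair with its seed, the bases 2 to 8 of the mature strand, and the bound messenger RNA is translated less or degraded. miRNAs with the same seed can bind many of the same messenger RNAs, whichever gene they come from. The miR-15 and miR-16 family is best known for repressing cyclins, cyclin-dependent kinases and the survival factor Bcl2, and the human miR-15a and miR-16-1 cluster is lost in many chronic lymphocytic leukaemias.

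Small RNA was sequenced in 24 libraries, 4 for each of the genotypes Ago413+/+, Ago413+/- and Ago413-/- in enriched pachytene/diplotene spermatocytes and in round spermatids, from male mice of 10 to 15 weeks on a C57BL/6J background. The Ago413 deletion removes Ago1 and parts of Ago3 and Ago4, which lie side by side, in every tissue of the animal, so Ago413+/- libraries carry 1 deleted copy of all 3 genes, and Ago2 is intact in all groups. Each fraction came from the testes of 2 to 5 mice, separated by gravity on an albumin gradient, and fractions over 70% pure were pooled. A library therefore holds pooled animals and some other cells. The labels do not say whether the 4 libraries of a group came from separate sets of mice, so the spread between them may be partly technical, and the miRNA counts cannot show the loss of the Ago genes.

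The mature sequences are shown because the members differ outside a common seed, which is in capitals. They are RefSeq sequences on GRCm38.p6, written 5′ to 3′.
miR-15a-5p: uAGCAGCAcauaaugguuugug
miR-15b-5p: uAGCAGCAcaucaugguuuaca
miR-16-5p: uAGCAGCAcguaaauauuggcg
miR-195a-5p: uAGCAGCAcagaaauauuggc
miR-497a-5p: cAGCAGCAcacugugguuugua
miR-322-5p: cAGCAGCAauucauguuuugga

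Compared over the whole strand, the family did not divide as its genes do. miR-195a-5p and miR-16-5p differed at 2 of 21 bases and shared the run aaauauuggc, although their genes lie on different chromosomes. miR-497a-5p was closer to miR-15a-5p, from which it differed at 5 of 22 bases with a shared run of ugguuugu, than to its neighbour miR-195a-5p, from which it differed at 9 of 21 bases. Reads of miR-16-5p and miR-195a-5p are near-identical, and how the counting divided reads with errors between them was not tested. Of the 1679 rows of the count table with a RefSeq sequence, 10 had the seed of the family. The 4 that are not members, miR-195b, miR-6342, miR-6353 and miR-6419, had 0 counts in all 24 libraries.

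The members come from 4 loci in GRCm38. Mir497 (chromosome 11, 70234717 to 70234800) and Mir195a (chromosome 11, 70235042 to 70235135) lie 241 bases apart on the plus strand, in no protein-coding gene of the GENCODE annotation, and Mir497b overlaps Mir497 on the minus strand. Mir15a (chromosome 14, 61632027 to 61632110) lies in an intron of the non-coding gene Dleu2, 54 bases from Mir16-1, whose hairpin (61631880 to 61631972) overlaps an exon of Dleu2. Mir15b (chromosome 3, 69009772 to 69009835) and Mir16-2 (69009902 to 69009996) lie 66 bases apart in an intron of Smc4, which encodes a condensin subunit. Both Mir16-1 and Mir16-2 give miR-16-5p, and their products cannot be told apart in the counts. Mir322 (chromosome X, 53054255 to 53054349) lies 200 bases from Mir503 on the minus strand.

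Library totals ran from 182904 to 1072637 counts. Spermatocyte totals were lower in Ago413-/- (182904 to 369491) than in most Ago413+/+ libraries (311610 to 721314). Spermatocytes Ago413-/- replicate 2, the smallest library, and spermatocytes Ago413+/- replicate 4 stood apart, with a median correlation to their replicates of 0.894 and 0.919, against 0.955 to 0.976 for the other 22 libraries. Results that rest on them are given with and without them. miR-34c-5p, the most abundant of 3 miRNAs of meiotic germ cells in every library, ran from 16100 to 163412 CPM (counts scaled to a common library size) and was lowest in the libraries that stood apart. These markers do not separate spermatocytes from round spermatids, and miRNAs of other cell types were counted too. In round spermatids, the summed level of 4 blood miRNAs ran from 51.5 to 501 CPM in Ago413+/+ and from 122 to 4840 CPM in Ago413-/-. All 3 blood miRNAs with enough counts were called higher, as was 1 of the 2 of endothelium (511 to 1988 CPM against 1949 to 5852 CPM). Of the 3 of peritubular cells (2646 to 10276 CPM against 6078 to 7506 CPM), miR-199a-3p was called higher. miR-143-3p and miR-145a-5p were not, with lower means in Ago413-/- (2549 against 3052 CPM and 19.6 against 67.6 CPM). Their highest Ago413+/+ libraries had 8325 and 220 CPM. Among all 426 miRNAs tested, 7.51% were called higher in this contrast. None of the 3 miRNAs of meiotic germ cells was called there (59185 to 108282 CPM against 70316 to 133692 CPM). In spermatocytes no marker of any list was called between Ago413-/- and Ago413+/+, where 4.46% of all 404 miRNAs tested were called. The germ cell sum was 58023 to 111990 CPM in Ago413+/+ and 18730 to 78790 CPM in Ago413-/-, with the ranges for blood at 24.6 to 2410 CPM and 459 to 2870 CPM. Whether these cells had a part in the members' differences was not tested.

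In Ago413+/+ cells the members covered a wide range of levels in the same order in both cell types, miR-16-5p, miR-15b-5p, miR-195a-5p, miR-497a-5p, miR-15a-5p and miR-322-5p. Levels are CPM scaled by the TMM method over all 24 libraries, and each read stands for 1 mature strand of 21 or 22 bases. In Ago413+/+ spermatocytes miR-16-5p averaged 4805 ± 624 CPM (SD, n = 4), rank 39 among the 1978 miRNAs, and miR-322-5p 31.1 ± 6.85 CPM, rank 327. No range of 4 libraries overlapped that of the next member in the order there. In Ago413+/+ round spermatids the ranges of miR-16-5p (2572 to 5029 CPM) and miR-15b-5p (2487 to 2988 CPM) overlapped, as did those of miR-497a-5p (68.5 to 247 CPM) and miR-15a-5p (52.95 to 108 CPM), so these neighbours in the order cannot be separated. Together the 6 members made up 0.186% to 1.32% of a library.

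**Figure D1:**
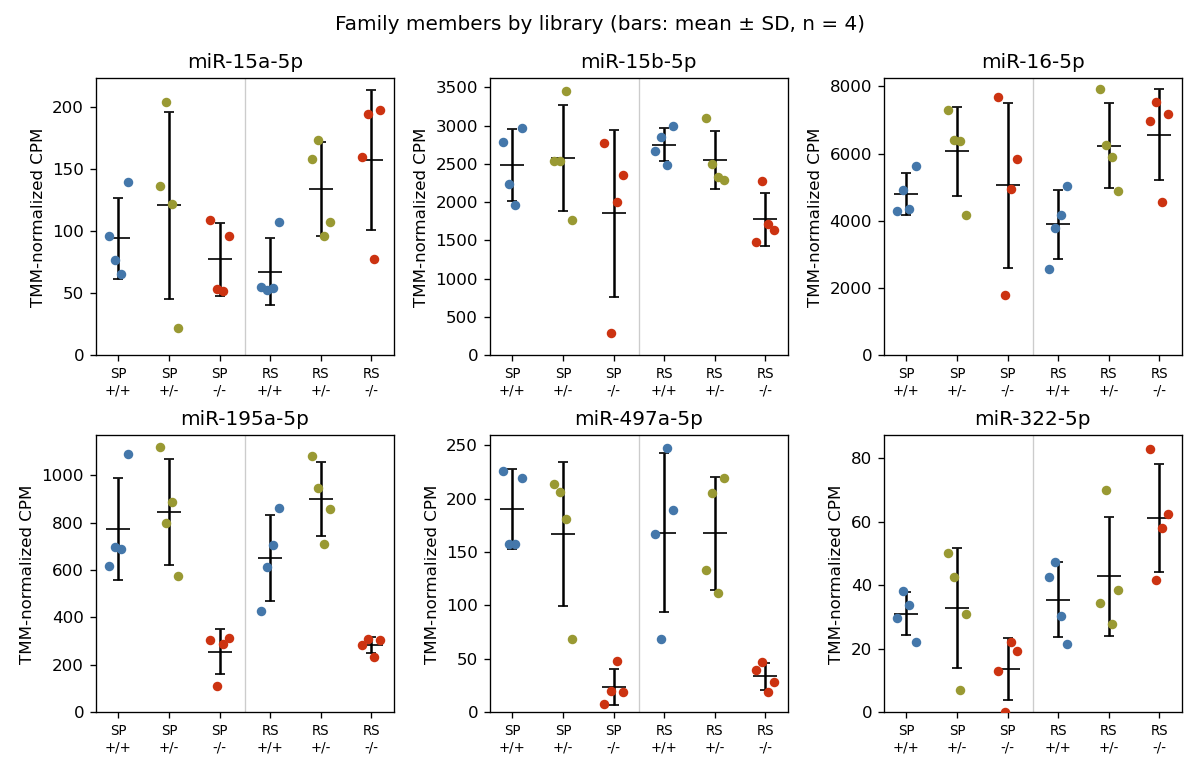
TMM-normalized CPM of each member (y axis, linear from 0) in the 24 libraries, by cell type (SP, spermatocytes; RS, round spermatids) and Ago413 genotype; each point is a library and bars show the mean ± SD of 4. miR-195a-5p and miR-497a-5p are lower in all 4 Ago413-/- libraries of both cell types than in every Ago413+/+ library, while the other 4 members overlap in spermatocytes.

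Both products of the chromosome 11 cluster were low in Ago413-/- cells. miR-195a-5p, which has been studied as a repressor of cell cycle regulators in heart and tumour cells, measured 616, 697, 688 and 1088 CPM in Ago413+/+ spermatocytes, 1117, 797, 886 and 575 CPM in Ago413+/- and 307, 113, 289 and 313 CPM in Ago413-/-. All 4 Ago413-/- libraries lay below all 8 others. In round spermatids it measured 425, 613, 707 and 861 CPM in Ago413+/+, 1081, 944, 708 and 858 CPM in Ago413+/- and 286, 309, 234 and 304 CPM in Ago413-/-. Again no Ago413-/- library reached the lowest library of the other genotypes. In such bulk fractions, fewer cells of a type and less RNA per cell cannot be told apart. The log2 fold change of Ago413-/- against Ago413+/+ was -1.60 ± 0.38 (SE, 3.03-fold lower) in spermatocytes and -1.06 ± 0.25 (2.08-fold lower) in round spermatids.

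miR-497a-5p, cut from the same cluster, was further below its Ago413+/+ level. It measured 226, 157, 158 and 219 CPM in Ago413+/+ spermatocytes, 213, 206, 181 and 68.3 CPM in Ago413+/-, and 7.80, 20.0, 48.1 and 19.2 CPM in Ago413-/-. Those 4 Ago413-/- values are 3, 3, 13 and 4 counts, so counting error is large: the counts summed over the 4 libraries gave a ratio to Ago413+/+ of 0.125 with an exact 95% interval of 0.0784 to 0.190, which covers counting error only. Its round spermatid values were 167, 68.5, 247 and 189 CPM in Ago413+/+, 133, 205, 111 and 219 CPM in Ago413+/- and 39.9, 47.3, 19.4 and 28.0 CPM in Ago413-/-. The groups did not overlap in either cell type. The log2 fold change was -3.03 ± 0.51 (8.18-fold lower) in spermatocytes and -2.17 ± 0.39 (4.49-fold lower) in round spermatids.

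A member is counted as called where edgeR's quasi-likelihood test gave an adjusted p under 0.05 over all miRNAs kept and the log2 fold change reached 1 in size. For Ago413-/- against Ago413+/+ in spermatocytes, 2 of the 6 members were called, miR-195a-5p and miR-497a-5p, both lower, where 4.46% of the 404 miRNAs tested were called and 3.22% were called lower. In round spermatids 3 of the 6 were called, miR-195a-5p and miR-497a-5p lower and miR-15a-5p higher, where 16.2% of 426 miRNAs were called, 8.69% lower and 7.51% higher. This contrast chose the members, so nothing is read from their count. The median log2 fold change of the members was -0.78 in spermatocytes, where that of all miRNAs was -0.05, and 0.20 in round spermatids, where it was 0.13. These medians include all libraries and, like the count, come from the choosing contrast. Without both spermatocyte libraries that stood apart, miR-15a-5p was at -0.10 and miR-15b-5p at -0.06. miR-16-5p was then at 0.36 and miR-322-5p at -0.83. miR-195a-5p was no longer called in spermatocytes without Ago413+/+ replicate 4 (log2 fold change -1.47) or without Ago413-/- replicate 3 (-1.63), nor in round spermatids without Ago413-/- replicate 3 (-0.99). Without both spermatocyte libraries that stood apart, the log2 fold changes were -1.35 for miR-195a-5p and -2.96 for miR-497a-5p, and both were called. In that setting 37 of 396 miRNAs were called, against 18 of 404 with all libraries.

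The cluster was not called different in cells with 1 deleted copy. Against Ago413+/+, Ago413+/- libraries gave log2 fold changes of 0.17 ± 0.36 (SE) for miR-195a-5p and -0.13 ± 0.43 for miR-497a-5p in spermatocytes, and 0.54 ± 0.25 and 0.11 ± 0.35 in round spermatids, and the groups overlapped in all 4 cases. Without both spermatocyte libraries that stood apart, the spermatocyte values were 0.36 for miR-195a-5p and 0.17 for miR-497a-5p, so the sign of the latter rests on Ago413+/- replicate 4, and neither was called. No member was called in either cell type by edgeR or by DESeq2. Nor did edgeR call any other miRNA (0% of 404 and 0% of 426), with 13 and 68 at an unadjusted p under 0.05, while DESeq2 called 0 and 6. Against Ago413+/-, Ago413-/- libraries gave -1.77 ± 0.38 and -2.90 ± 0.51 in spermatocytes and -1.60 ± 0.25 and -2.27 ± 0.39 in round spermatids. Those 2 members were the ones called in that contrast, both lower, in spermatocytes, where 2.23% of all miRNAs were called and 1.98% were lower, and in round spermatids, where 12.4% and 7.28% were. Without the libraries that stood apart, the spermatocyte values were -1.71 and -3.13 and both were still called. In that setting 64 of 396 miRNAs were called, against 9 of 404 with all libraries. Without spermatocytes Ago413+/- replicate 1, miR-497a-5p alone was called in spermatocytes. The 3 contrasts share libraries, so they do not support one another.

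**Figure D2:**
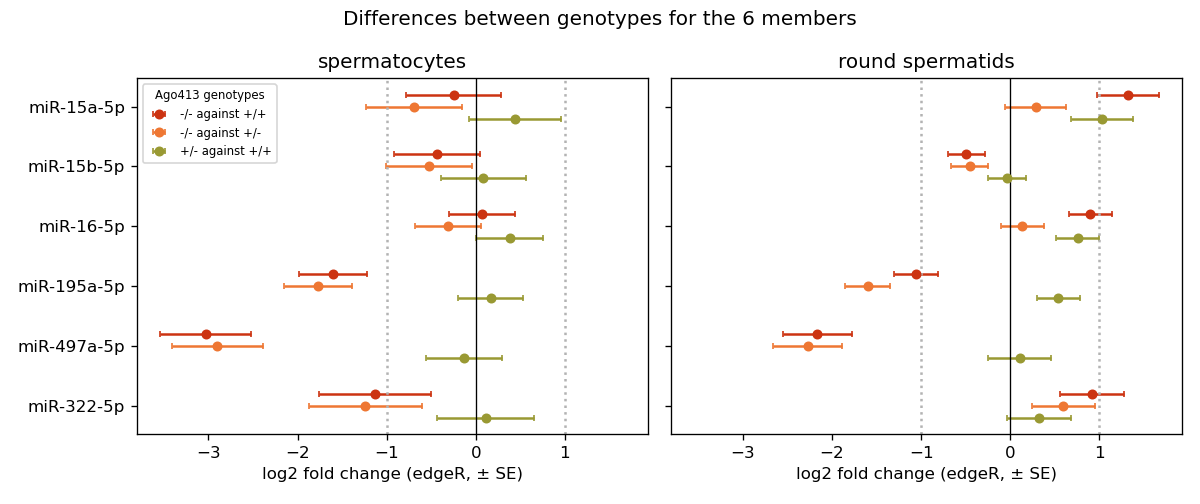
log2 fold change ± SE from edgeR (x axis) for the 6 members (y axis) in spermatocytes (left) and round spermatids (right), for the 3 contrasts between Ago413 genotypes; dotted lines mark the call limit of 1 in size. miR-195a-5p and miR-497a-5p lie at -1 or below in both contrasts that involve Ago413-/-, from -1.06 to -3.03, and between -0.13 and 0.54 for Ago413+/- against Ago413+/+.

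No miR-15 or miR-16 member was called lower in Ago413-/- cells, though miR-15b-5p lay below both other genotypes in round spermatids, as given below. miR-16-5p, the most abundant member, measured 4301, 4921, 4356 and 5642 CPM in Ago413+/+ spermatocytes and 7671, 1791, 4958 and 5827 CPM in Ago413-/-. The groups overlapped, with a log2 fold change of 0.07 ± 0.37 (SE), or 0.34 without Ago413-/- replicate 2. The round spermatid libraries held 2572, 3803, 4168 and 5029 CPM in Ago413+/+, 7923, 6248, 5901 and 4885 CPM in Ago413+/-, and 6975, 7548, 4557 and 7192 CPM in Ago413-/-. In each of the other genotypes 3 of 4 libraries were above the highest Ago413+/+ library, with log2 fold changes of 0.76 ± 0.24 for Ago413+/- and 0.90 ± 0.24 for Ago413-/-, under the call limit of 1. Without round spermatids Ago413-/- replicate 3 the latter was 1.03, and miR-16-5p was called.

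miR-15a-5p, which is cut from 1 transcript with miR-16-5p of Mir16-1, was scarcer. In spermatocytes it measured 96.3, 76.7, 65.4 and 139.6 CPM in Ago413+/+ and 109, 53.3, 51.8 and 96.2 CPM in Ago413-/-, with overlap and a log2 fold change of -0.25 ± 0.54 (SE). In round spermatids the values were 54.9, 52.95, 54.1 and 108 CPM in Ago413+/+, 158, 174, 96.1 and 107 CPM in Ago413+/- and 159.6, 194.8, 77.4 and 198 CPM in Ago413-/-. Replicate 4 of Ago413+/+ and replicate 3 of Ago413-/- cross, so the groups overlapped. The log2 fold change was 1.32 ± 0.35 for Ago413-/- and 1.03 ± 0.35 for Ago413+/-, of which the first was called and the second was not. The call was lost without Ago413+/+ replicate 1 (1.01) or replicate 2 (1.03). Blood and endothelial miRNAs were also called higher in Ago413-/- round spermatids, as given above, though both sums overlapped those of Ago413+/+. In Ago413+/- none of them was called, with blood sums of 187 to 1168 CPM and endothelial sums of 857 to 1158 CPM. Their part in the result was not tested.

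miR-15b-5p, cut from 1 transcript with miR-16-5p of Mir16-2, lay on the other side. In spermatocytes it measured 2782, 2240.0, 1959 and 2973 CPM in Ago413+/+ and 2768, 286, 2007 and 2356 CPM in Ago413-/-. Only replicate 2 was far below, and the log2 fold change of -0.43 ± 0.48 (SE) was -0.08 without it. In round spermatids miR-15b-5p measured 2674, 2852, 2487 and 2988 CPM in Ago413+/+, 3095, 2496, 2325 and 2287 CPM in Ago413+/- and 1483, 2279, 1711 and 1637 CPM in Ago413-/-. The 4 Ago413-/- libraries lay below the 8 others, with log2 fold changes of -0.49 ± 0.21 against Ago413+/+ and -0.45 ± 0.21 against Ago413+/-, which were not called. With miR-195a-5p and miR-497a-5p, 3 of the 6 members thus lay wholly below Ago413+/+ in round spermatids, as did 15.5% of all miRNAs there, and 2 of the 6 in spermatocytes, as did 12.6%. The same members lay wholly below Ago413+/-, as did 14.8% of all miRNAs in round spermatids and 5.94% in spermatocytes.

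miR-322-5p, the mouse counterpart of human miR-424 and the only X-linked member, was near the detection limit. In spermatocytes it measured 29.9, 38.3, 33.9 and 22.2 CPM in Ago413+/+, 50.4, 42.6, 7.05 and 31.1 CPM in Ago413+/- and 13.01, 0, 22.2 and 19.2 CPM in Ago413-/-. The last 4 values are 5, 0, 6 and 4 counts, and the library with 0 allows up to 20.0 CPM (3 counts). For round spermatids the values were 42.7, 47.5, 30.5 and 21.6 CPM in Ago413+/+, 34.6, 70.2, 27.8 and 38.7 CPM in Ago413+/- and 83.1, 41.7, 58.1 and 62.5 CPM in Ago413-/-. The groups overlapped in both cell types. The log2 fold change of Ago413-/- against Ago413+/+ was -1.13 ± 0.63 (SE) in spermatocytes, or -0.84 without replicate 2 of Ago413-/-, and 0.92 ± 0.36 in round spermatids, and neither was called.

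The balance within the family was measured as a ratio of counts inside each library, which needs no scaling between libraries. The log2 ratio of miR-195a-5p and miR-497a-5p over miR-15a-5p, miR-15b-5p and miR-16-5p was -2.96 ± 0.17 (SD, n = 4) in Ago413+/+ spermatocytes, -3.13 ± 0.15 in Ago413+/- and -4.51 ± 0.46 in Ago413-/-. In round spermatids it was -3.06 ± 0.22, -3.06 ± 0.26 and -4.73 ± 0.07. The cluster was thus 2.93-fold lower relative to miR-15 and miR-16 in Ago413-/- spermatocytes and 3.20-fold lower in Ago413-/- round spermatids, and every Ago413-/- library was below every other library. Without the libraries that stood apart, the difference of Ago413-/- from Ago413+/+ in spermatocytes went from -1.55 to -1.73 on the log2 scale. The genotypes are not tested on this ratio, which the choice of members set. In Ago413+/+ cells the ratio differed between round spermatids and spermatocytes by -0.10 ± 0.14 (SE), less than the spread between replicates (exact two-sided permutation test, p = 0.514).

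Ratios between members of 1 class come from the contrast that chose the members and are given without a test. miR-15b-5p over miR-16-5p was lower in Ago413-/- than in Ago413+/+ round spermatids by -1.41 ± 0.27 on the log2 scale (SE, n = 4), with group means of -0.46 in Ago413+/+, -1.28 in Ago413+/- and -1.88 in Ago413-/-. No Ago413-/- library reached an Ago413+/+ library. In spermatocytes the groups did not overlap either, with a difference of -0.72 ± 0.34 that was -0.40 without replicate 2 of Ago413-/-. miR-497a-5p over miR-195a-5p was lower by -1.45 ± 0.67 in spermatocytes, by -0.91 without Ago413-/- replicate 1 and by -1.83 without replicate 2. In round spermatids it differed by -1.06 ± 0.46, and the groups overlapped. The differences of miR-15a-5p over miR-16-5p were -0.17 ± 0.37 in spermatocytes, or -0.47 without Ago413-/- replicate 2, and 0.42 ± 0.25 in round spermatids, with overlap in both.

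**Figure D3:**
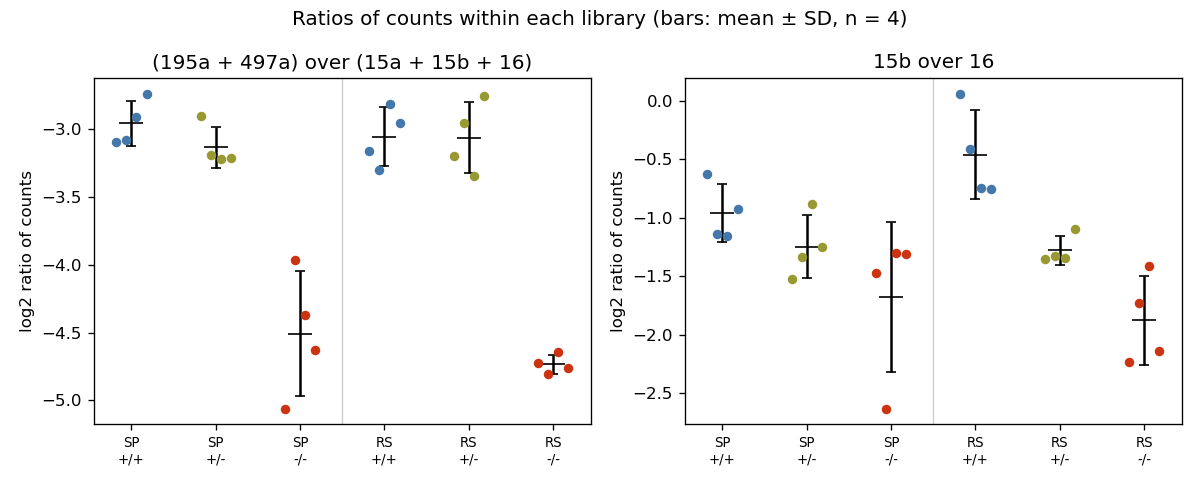
log2 ratio of counts within each library (y axis), for miR-195a-5p plus miR-497a-5p over miR-15a-5p, miR-15b-5p and miR-16-5p (left) and for miR-15b-5p over miR-16-5p (right), by cell type (SP, RS) and Ago413 genotype, with the mean ± SD of 4. On the left the Ago413-/- libraries lie apart from the other 16; on the right the Ago413+/- round spermatids, at a mean of -1.28, lie between Ago413+/+ (-0.46) and Ago413-/- (-1.88).

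The family as a whole was called in neither cell type between Ago413-/- and Ago413+/+. With counts summed over miRNAs of the same seed, its log2 fold change was -0.32 ± 0.38 (SE) in spermatocytes and 0.14 ± 0.20 in round spermatids. The spermatocyte value turned to 0.15 ± 0.18 without the libraries that stood apart. Of all family counts, miR-16-5p made up a mean of 57.5% in Ago413+/+ spermatocytes and 71.1% in Ago413-/-, and 50.8% and 73.6% in round spermatids. The share of miR-195a-5p was 9.12% and 3.84% in spermatocytes and 8.49% and 3.22% in round spermatids, and that of miR-497a-5p was 2.27% and 0.457%, and 2.25% and 0.371%. miR-15b-5p went from 29.6% to 23.2% and from 37.1% to 20.3%. Without replicate 2, the Ago413-/- spermatocyte means were 68.4% for miR-16-5p and 26.7% for miR-15b-5p. Those of miR-195a-5p and miR-497a-5p were then 3.45% and 0.316%.

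Between the cell types the members were tested over all 24 libraries, as the mean of the differences within the 3 genotypes. edgeR called 0 of the 6 members, where 0.889% of 450 miRNAs were called, and DESeq2 also called 0. miR-195a-5p differed between round spermatids and spermatocytes by -0.01 ± 0.18 on the log2 scale (SE, adjusted p = 0.990) and miR-497a-5p by 0.10 ± 0.26 (adjusted p = 0.886). The abundant miR-16-5p differed by 0.04 ± 0.18 (adjusted p = 0.935) and miR-15b-5p by 0.02 ± 0.22 (adjusted p = 0.969), and miR-15a-5p by 0.22 ± 0.26 (adjusted p = 0.646). The signs of miR-195a-5p, miR-16-5p, miR-15b-5p and miR-497a-5p turned under at least 1 change of scaling, filter or libraries. The member that differed most was miR-322-5p, higher in round spermatids by 0.88 ± 0.28, with an unadjusted p of 0.00412 and an adjusted p of 0.0843, so it did not pass the test. For the summed seed the difference was 0.03 ± 0.17 (adjusted p = 0.956), or -0.12 without the libraries that stood apart.

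Within single genotypes, edgeR and DESeq2 called no member between the cell types in Ago413+/+ or in Ago413+/-, where neither tool called any miRNA (0% of 450) and edgeR had 10 and 15 at an unadjusted p under 0.05. In Ago413-/- 1 of the 6 was called, where edgeR called 4.89% of all miRNAs and 1.56% were higher. It was miR-322-5p, higher in round spermatids by 2.07 ± 0.53 (SE). Its lowest round spermatid library held 41.7 CPM and its highest spermatocyte library 22.2 CPM. These libraries belong to the contrast that chose the members, so the value is a description without a p-value. The call was lost without spermatocytes Ago413-/- replicate 2 or replicate 4. It was also lost without round spermatids Ago413-/- replicate 1, replicate 3 or replicate 4. Without both spermatocyte libraries that stood apart the difference was 1.94 and was not called. The number of all miRNAs called also depended on single libraries. It was 22 of 450 with all libraries and 1 of 450 without spermatocytes Ago413-/- replicate 2. It was 62 of 448 without spermatocytes Ago413-/- replicate 1. The difference between Ago413-/- and Ago413+/+ was also compared between the cell types, as an interaction. It is built from the contrast that chose the members, so their values are a description. At an adjusted p under 0.05 neither edgeR nor DESeq2 called a member. edgeR called none of the 450 miRNAs (0%), with 55 at an unadjusted p under 0.05. The largest interactions of members were those of miR-322-5p at 1.89 ± 0.70 and miR-15a-5p at 1.43 ± 0.64. Those of miR-195a-5p and miR-497a-5p were 0.38 ± 0.43 and 0.68 ± 0.66.

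The opposite arm of the miR-195a hairpin did not share the low level of miR-195a-5p in Ago413-/- spermatocytes. Its sequence is shown because its seed, in capitals, is not that of the family.
miR-195a-3p: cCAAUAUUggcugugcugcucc
It measured 188, 203, 64.3 and 178 CPM in Ago413+/+ spermatocytes, 94.8, 69.5, 136 and 124 CPM in Ago413+/- and 130.1, 199.7, 289 and 350.99 CPM in Ago413-/-. The Ago413-/- libraries overlapped Ago413+/+ and included the 2 highest values of all 24 libraries, with a log2 fold change of 0.60 ± 0.41 (SE) that was not called. Round spermatids had 102, 106, 139 and 67.1 CPM in Ago413+/+, 72.5, 98.6, 142 and 86.0 CPM in Ago413+/- and 39.9, 58.4, 58.1 and 40.9 CPM in Ago413-/-. There the Ago413-/- libraries were below all others, with a log2 fold change of -0.89 ± 0.29 that was under the call limit of 1.

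The arms of miR-195a were therefore read at different proportions. There were 5.19 counts of miR-195a-5p per count of miR-195a-3p in Ago413+/+ spermatocytes, as the geometric mean of 4 libraries, 7.90 in Ago413+/- and 1.05 in Ago413-/-, where single libraries ran from 0.574 to 2.35 and lay below all 8 others. In round spermatids the ratios were 6.26, 9.11 and 5.70, and the genotypes overlapped. The difference of Ago413-/- from Ago413+/+ in spermatocytes was -2.31 on the log2 scale, or -2.02 without Ago413-/- replicate 2. Among 100 hairpins with both arms counted, 13% did not overlap between these genotypes. Since miR-195a-5p was chosen for its low level in Ago413-/- cells, nothing is read from this. In round spermatids the difference was -0.13. miR-195a-3p was lower in round spermatids than in spermatocytes of Ago413-/- mice by -2.29 ± 0.38 (SE, adjusted p = 0.00119 by edgeR), which stayed called whichever library was left out (-2.50 to -1.89). Over the 3 genotypes it was lower by -1.0001 ± 0.21 (adjusted p = 0.0158), just past the call limit, and fell short of that limit in most alternatives, between -0.88 and -1.07 when 1 library was left out. The interaction of genotype and cell type was -1.67 for miR-195a-3p (adjusted p = 0.306) and was not called.

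**Figure D4:**
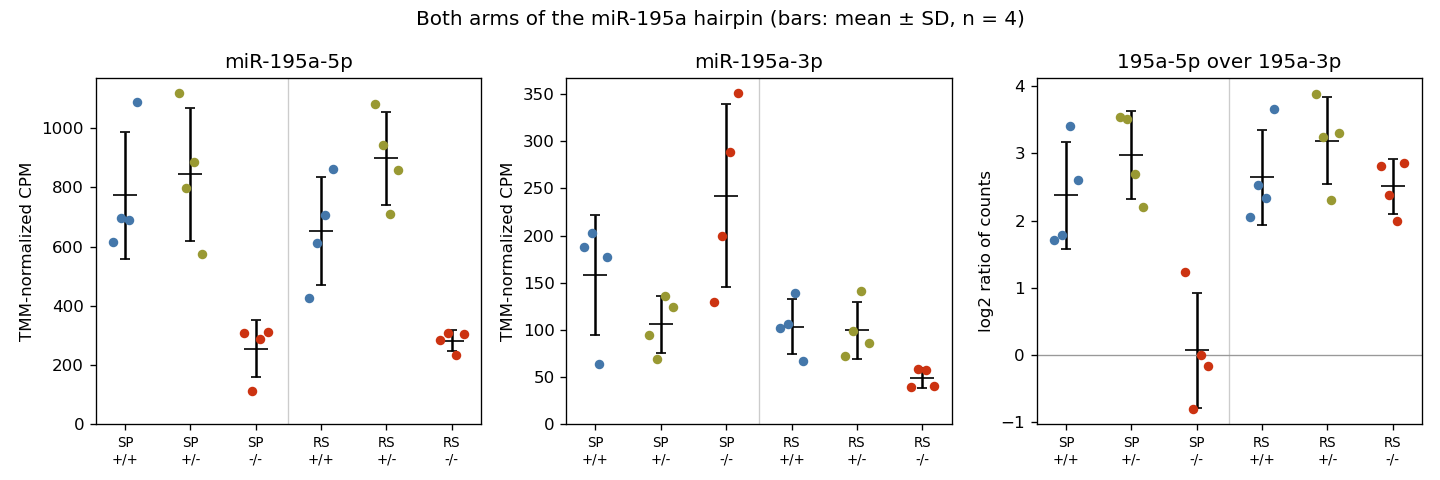
TMM-normalized CPM of miR-195a-5p (left) and miR-195a-3p (middle), and the log2 ratio of their counts in each library (right), by cell type (SP, RS) and Ago413 genotype, with the mean ± SD of 4. The 5p arm is low in Ago413-/- cells of both types, whereas the 3p arm is low only in round spermatids there and reaches 350.99 CPM in spermatocytes, and the log2 ratio in those 4 libraries runs from -0.80 to 1.23.

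Of the 7 opposite arms of the family's hairpins, 5 had enough counts to be tested. By edgeR 0 were called in any contrast between genotypes, where 0% to 16.2% of all miRNAs were. miR-497a-3p had 0 counts in all 24 libraries, so the arms of miR-497a cannot be compared. miR-15b-3p averaged 234 ± 47.6 CPM (SD, n = 4) in Ago413+/+ spermatocytes and 193 ± 58.2 CPM in Ago413-/-. miR-322-3p, at 162 ± 70.6 CPM in Ago413+/+ spermatocytes and 203 ± 25.7 CPM in round spermatids, was the more abundant arm of its hairpin. The ratio of miR-322-5p to miR-322-3p was 0.173 in Ago413+/+ round spermatids and 0.349 in Ago413-/-, which did not overlap, as in 25% of the 104 hairpins compared there, and this ratio too holds a chosen member.

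The neighbours of these clusters mostly had few counts. Of 13 neighbouring arms, 4 were tested in spermatocytes and 0 were called between Ago413-/- and Ago413+/+, and 5 were tested in round spermatids, of which 1 was called, where 16.2% of all miRNAs were. It was miR-450a-5p from the X-linked cluster of miR-322, at a log2 fold change of 1.45 ± 0.29 (SE). It had 42.7 ± 9.56 CPM in Ago413+/+ round spermatids and 103 ± 16.5 CPM in Ago413-/- (SD, n = 4). miR-503-5p, whose gene is the nearest to Mir322, had a log2 fold change of 0.70 ± 0.40 there and was not called.
miR-503-5p: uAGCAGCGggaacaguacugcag
Its seed, in capitals, differs from that of the members in its last base.

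Across the 24 libraries and 450 miRNAs, the profile of miR-195a-5p was most like those of miR-669p-5p (Pearson's r of log2 CPM = 0.903), miR-669a-5p (0.880), miR-466b-3p (0.879), miR-466g (0.879) and miR-669o-3p (0.874). Among the members its r was 0.849 with miR-497a-5p and 0.720 with miR-15b-5p, and 0.368 with miR-16-5p, which it resembles most in sequence. The profile of miR-16-5p was most like those of miR-19a-3p (0.912), miR-19b-3p (0.897), miR-20a-5p (0.897), miR-135a-5p (0.883) and miR-30b-5p (0.881), with r at 0.713 for miR-15a-5p and 0.003 for miR-497a-5p. These values describe 24 libraries that share genotypes, depth and 2 libraries that stood apart.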

How the data were processed

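Small RNA of 24 libraries was analysed. The authors trimmed reads with TrimGalore, matched them with miRDeep2 to the mature sequences of miRBase, and deposited raw counts of 1978 mature miRNAs without normalization. Groups and replicate numbers were taken from the labels. The members, lists, tests and named miRNAs were chosen with earlier results of these data known. The miRNAs named are the members, their opposite arms, miRNAs of the same seed, cluster neighbours, the 5 most like miR-195a-5p and the 5 most like miR-16-5p (TMM, prior count of 2), and markers (blood: miR-451a, miR-486a-5p, miR-144-3p, miR-223-3p; endothelium: miR-126a-3p, miR-126a-5p; peritubular cells: miR-199a-3p, miR-145a-5p, miR-143-3p; meiotic germ cells: miR-449a-5p, miR-34c-5p, miR-34b-5p).

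Counts were tested with edgeR 4.0.16 (R 4.3.3, quasi-likelihood, TMM) on miRNAs that reached 10 counts in 3 or more libraries of a fit, 12 libraries for genotypes (404 and 426 kept) and 24 for cell types (450), with Benjamini-Hochberg adjustment; the SE is the log2 fold change over the square root of F. Scripts were tested on simulated data. Ratios used a pseudocount of 0.5, and the cluster ratio an exact permutation test between cell types (scipy 1.17.1). Tests planned for ratios within a class between genotypes are not reported, since that contrast chose the members. Sequences and loci are from RefSeq GRCm38.p6 and GENCODE. The limit at a count of 0 was set at 3 counts and covers counting error only, since PCR reads without molecular identifiers are not independent molecules. Replicate libraries differed by more than sampling noise. Alternatives were DESeq2 1.42.0, RLE scaling, library totals, no filter, at least 10 counts in every library, calls on the adjusted p alone, a fit of only the compared genotypes, a replicate block, a term for library numbers up to 60, miR-16-5p alone as denominator, a pseudocount of 5, each replicate left out and, chosen after seeing the data, both spermatocyte libraries that stood apart left out.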

Additional observations from a re-analysis of the deposited data

Results flagged for a closer look

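In 5 of 60 groups of 4 libraries, 1 library lay apart from the other 3 beyond Dixon's limit, where chance gives about 3. miR-15a-5p had 108 CPM in round spermatids Ago413+/+ replicate 4 and 52.95 to 54.9 CPM in the other 3. miR-195a-5p had 113 CPM in spermatocytes Ago413-/- replicate 2, one of the libraries that stood apart, and 289 to 313 CPM in the other 3. In that library the log2 ratio of miR-15b-5p over miR-16-5p was -2.63, against -1.47 to -1.30. The same ratio was -1.09 in round spermatids Ago413+/- replicate 4, against -1.36 to -1.32. The log2 ratio of miR-195a-5p and miR-497a-5p over the miR-15 and miR-16 members was -2.91 in spermatocytes Ago413+/- replicate 1, against -3.22 to -3.19.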

How the results depend on the processing

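The log2 fold changes of miR-195a-5p and miR-497a-5p in Ago413-/- against Ago413+/+ stayed negative under every alternative run in both cell types. In spermatocytes the members called fell from 2 to 1 against Ago413+/+ and to 1 against Ago413+/- with at least 10 counts in every library, where miR-497a-5p was not tested, and with only the 2 genotypes compared, where miR-195a-5p was lost. Between the cell types in Ago413-/- the count fell from 1 to 0 with at least 10 counts in every library, where miR-322-5p was not tested, and to 0 without both libraries that stood apart. Without these, the spermatocyte difference between Ago413-/- and Ago413+/+ was 0.15 for the summed seed, -1.73 for the cluster ratio and -0.40 for miR-15b-5p over miR-16-5p. With miR-16-5p alone as the denominator, the cluster ratio difference was -1.74 in spermatocytes and -2.11 in round spermatids, and the cell type difference in Ago413+/+ turned to 0.092. miR-15a-5p over miR-16-5p in spermatocytes turned to 0.062 with a pseudocount of 5. The small cell type differences turned sign: miR-15b-5p to -0.031 and miR-16-5p to -0.014 with library totals, to -0.11 and -0.074 without both libraries that stood apart, where the summed seed turned to -0.12, and miR-195a-5p to 0.024 with at least 10 counts in every library. The cause was not tested in those cases where a miRNA stayed in the test.

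With 1 library left out, the members called ran from 1 to 2 (Ago413-/- against Ago413+/+) and from 1 to 2 (against Ago413+/-) in spermatocytes, from 2 to 3 against Ago413+/+ in round spermatids, and from 0 to 1 between cell types in Ago413-/-. The cluster ratio difference ran from -1.73 to -1.37 in spermatocytes and from -1.76 to -1.60 in round spermatids. miR-497a-5p over miR-195a-5p ran from -1.83 to -0.91 in spermatocytes, miR-15b-5p over miR-16-5p from -0.84 to -0.40, and miR-15a-5p over miR-16-5p from -0.47 to 0.043. Cell type differences ran from -0.064 to 0.11 for miR-15b-5p, -0.027 to 0.13 for miR-16-5p, -0.051 to 0.094 for miR-195a-5p and -0.023 to 0.34 for miR-497a-5p.

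Replicate numbers were not taken to pair the samples. Across cell types, deviations of same-numbered libraries correlated between -0.165 and 0.425, with 6 of 12 pairs over 0.1. Yet 11 of the 12 pairs carry consecutive library numbers, and 1 gradient yields both fractions from 1 cell suspension, so a pair may share mice, which the labels do not say. Between Ago413-/- and Ago413+/+ spermatocytes 3 of 4 pairs were over 0.1 (-0.124 to 0.336). The replicate block changed no count of members called; under it the cell type difference of miR-195a-5p was 0.019. DESeq2 called the same members as edgeR in every contrast, though among more miRNAs in spermatocytes. There it called 61 of 404 against Ago413+/+ and 57 of 404 against Ago413+/-, where edgeR called 18 and 9. In round spermatids it called 71 and 60 of 426, where edgeR called 69 and 53. Between the cell types in Ago413-/- it called 49 of 450, where edgeR called 22. Depth limits miR-497a-5p and miR-322-5p in Ago413-/- spermatocytes, where most libraries held 6 counts or fewer.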
